A study of Mus musculus with 10 samples.

Results

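Nascent transcription in mouse embryonic stem cells whose Elongin A carries the substitution K754M (a lysine replaced by methionine) was compared with that in cells carrying wild-type Elongin A. The comparison rests on 4 of the 10 samples of the series, EloA_K754M replicates 1 and 2 and EloA_WT replicates 1 and 2. The deposited table lists 24901 genes, and the 15161 whose RPKM (intronic reads scaled by intron length and by library depth) averaged 0.1 or more over the 6 libraries with columns of their own were tested. Beside them stand the 2 libraries of EloA_K754R, where the same lysine is replaced by arginine, and a pooled column of 2 libraries of wild-type CJ7 cells (CJ7_WT), used as an outside control. The EloA_K754M and EloA_K754R genotypes are labelled as edited, with no word on how many clones they stand for. All groups were grown in serum and LIF with the MEK inhibitor PD0325901 (1 µM) and the GSK3 inhibitor CHIR99021 (3 µM), and all received 2 mM bromouridine for 10 min. Bromouridine is built into new RNA and lets it be pulled down with an antibody (Bru-seq).

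Elongin A is the large subunit of Elongin, a factor that keeps RNA polymerase II moving by shortening its pauses. It binds the small subunits Elongin B and Elongin C, and with Cullin 5 the complex also serves as a ubiquitin ligase that acts on stalled polymerase. Introns are removed soon after they are made, so reads from them track RNA that is being made rather than mRNA in store.

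The line field of the labels reads CCE28 for EloA_WT and CJ7 for EloA_K754M, EloA_K754R and CJ7_WT, whereas the growth protocol names CJ7 throughout. Eed_null, a further pooled column used only where all columns are compared, is titled Eed null but has EloA null in its genotype field and CCE28 as its line, so what it lacks is not settled by the labels. Where that field holds, K754M cannot be told apart from the difference between lines in EloA_K754M against EloA_WT. The pooled CJ7_WT column then shares its line with EloA_K754M but has no replicate of its own and no test. Nothing in the labels says that replicates are separate cultures, so p-values here cover no more than the scatter of these libraries, which may be technical.

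Stem cell markers were high throughout. The 8 with a value summed to 141 and 164 RPKM in EloA_WT and to 145 and 174 in EloA_K754M, while 6 trophectoderm markers summed to at most 1.48 RPKM in these libraries. The 12 fibroblast markers summed to 7.05 and 6.28 RPKM in EloA_WT and to 11.8 and 9.32 in EloA_K754M. Their sums were 12.3 and 9.65 RPKM in EloA_K754R and 11.4 in pooled CJ7_WT, and the labels speak both of culture on fibroblast feeders and of feeder-free dishes. Depth, as reads recovered from the values, ranged from 15937108 to 23650557 per library and was 51352999 in pooled CJ7_WT. Among 2167 genes that are near silent in both pooled columns, the median level was 0.111 RPKM in EloA_K754M replicate 2 and between 0.00646 and 0.0435 in the other 5 libraries, so values near 0.1 RPKM in that library are close to its floor.

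Losses outnumbered gains among the genes past the threshold with all 6 libraries. This did not hold when either EloA_K754M library or EloA_WT replicate 1 was left out. In EloA_K754M 31 genes fell (0.204% of those tested) and 2 rose (0.0132%), at an adjusted p under 0.05 in limma (33 in all, 0.218%). The mean was lower for 57.3% of tested genes. At an unadjusted p under 0.05 there were 1629 lower genes (10.7%) and 705 higher ones (4.65%), and both EloA_K754M libraries lay below both EloA_WT libraries for 4127 genes (27.2%) and above both for 2580 (17%). Chromosome 11, described below, has 8.67% of the tested genes but held 603 of the 1629 and 829 of the 4127. The distal end of chromosome 17 held 48 of the 1629. The falls ranged from −1.04 to −4.14 on the log2(RPKM + 0.1) scale, which understates changes of low genes, against a median of −0.06 over all tested genes. Calls rested on the pooled spread of 6 libraries: with only the 4 libraries compared 3 genes passed, and 0 of the 33 were among them. All 31 falls stayed negative there and whichever library was left out, which is no separate support. The 4 libraries give the same differences of means, and where the groups do not overlap leaving out a library cannot turn the sign. Setting all libraries to equal medians, which moved the median of all genes by 0.127 to 0.07, left 15 falls and 1 rise, and voom on the recovered reads called 192 lower and 128 higher genes. The 2 EloA_K754M libraries differed from each other by a median of 0.228 per gene on that scale and the 2 EloA_WT libraries by 0.221.

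**Figure D1:**
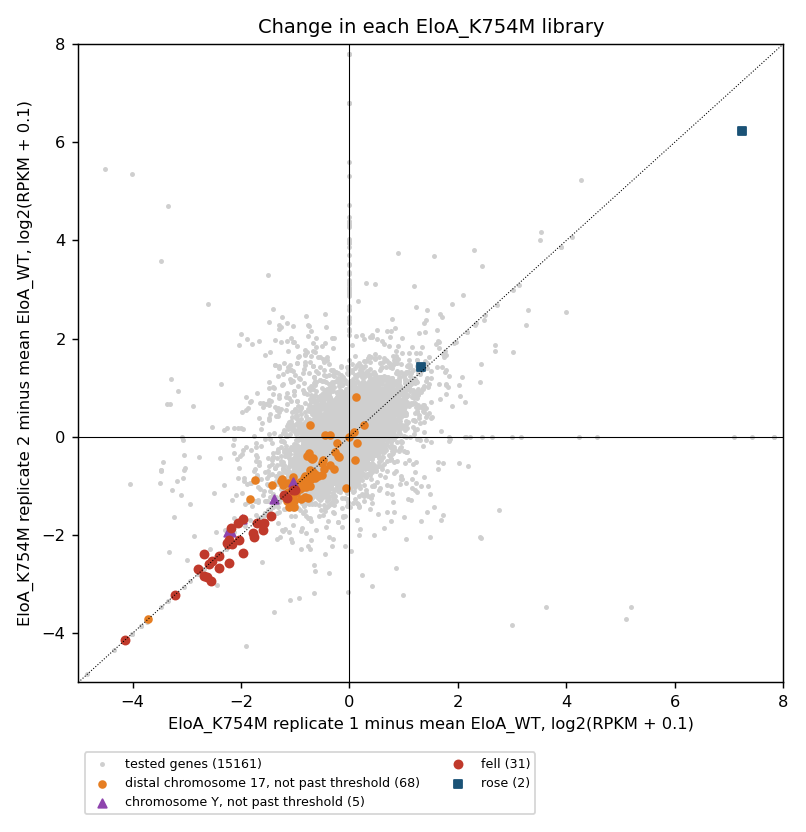
Change of each tested gene in EloA_K754M replicate 1 (horizontal axis) and replicate 2 (vertical axis) from the mean of EloA_WT, in log2(RPKM + 0.1), with 11 genes outside the axes. The 31 genes that fell and most distal chromosome 17 genes lie near the diagonal in the lower left, where both libraries are low, and the 2 that rose lie in the upper right; both axes share the EloA_WT mean.

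Elongin A itself (Tceb3) stood at 1.83 and 2.03 RPKM in EloA_WT and at 1.46 and 1.98 in EloA_K754M (log2 change −0.17, adjusted p = 0.704). The groups overlapped. A point substitution leaves intronic reads as they are, so this value is no check of the genotype. Elongin C (Tceb1) differed by −0.15, Elongin B (Tceb2) by −0.16 and Cullin 5 (Cul5) by −0.03, with adjusted p between 0.741 and 0.954. Of the 8 tested genes of the Elongin complex and its partners none passed the threshold in limma or voom, and their median was −0.17. An unadjusted p under 0.05 was found for 1 of them, and for 15.4% of all tested genes.

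Amino acid supply held more of the falls than any other set of lists. ATF4 is the transcription factor of the integrated stress response. It switches on genes for serine, proline and asparagine synthesis, amino acid transport and tRNA charging when amino acids run short or the ER is stressed, and many of these genes carry a C/EBP-ATF element. Of the 31 genes that fell, 11 belong to the lists of ATF4 stress effectors, amino acid enzymes, amino acid transporters and aminoacyl-tRNA synthetases. TGATGNAA, the core of that element, was the only motif searched, on both strands (TTNCATCA on the opposite strand), in the RefSeq promoter table (GRCm38.p6, 250 bases before to 50 after each start). It occurs in 3.97% of the 32851 promoters of the table. By gene it occurs in 4.51% of all genes there and in 2.76% of the 9700 tested genes that have a promoter there. It occurs in 4 of these 11 genes, Chac1, Pck2, Pycr1 and Slc1a4. Of the 10 other genes that fell and have a promoter there 2 hold it. By list, counting genes with a promoter there, it occurs in 5 of 14 ATF4 effectors, 4 of 14 other amino acid enzymes and 3 of 14 transporters. It occurs in 5 of 12 synthetases and 0 of 14 serine and one-carbon enzymes. A match is a run of letters and not a shown binding site. The 250 bases before the start of 3 of the 4 are shown, with the match in capitals, because in these the whole match lies before the start, while that of Slc1a4 runs past it.
Chac1 (chr2:119350992-119351241, plus strand): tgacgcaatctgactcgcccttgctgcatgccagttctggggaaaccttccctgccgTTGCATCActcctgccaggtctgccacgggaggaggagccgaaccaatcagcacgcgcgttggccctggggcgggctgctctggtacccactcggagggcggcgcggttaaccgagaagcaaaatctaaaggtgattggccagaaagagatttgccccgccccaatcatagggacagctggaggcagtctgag
Pck2 (chr14:55540016-55540265, plus strand): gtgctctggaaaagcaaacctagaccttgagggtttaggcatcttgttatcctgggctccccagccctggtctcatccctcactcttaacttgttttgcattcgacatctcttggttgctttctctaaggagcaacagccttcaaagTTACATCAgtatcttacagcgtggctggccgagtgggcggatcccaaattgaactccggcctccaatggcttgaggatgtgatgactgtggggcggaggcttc
Pycr1 (chr11:120643749-120643998, minus strand): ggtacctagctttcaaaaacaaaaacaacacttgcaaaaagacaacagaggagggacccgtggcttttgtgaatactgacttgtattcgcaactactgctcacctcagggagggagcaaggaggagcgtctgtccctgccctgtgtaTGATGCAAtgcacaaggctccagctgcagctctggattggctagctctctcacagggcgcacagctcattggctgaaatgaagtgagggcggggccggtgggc
The match begins 193 bases before the start in Chac1 and 103 bases before it in Pck2 and Pycr1, on the opposite strand in the first 2 and on the gene's strand in Pycr1.

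Chac1, which degrades glutathione, stood at 2.01 and 2.67 RPKM in EloA_WT and at 0.313 and 0.218 in EloA_K754M (log2 change −2.74, SE 0.216, adjusted p = 0.0264). It was as low in EloA_K754R, at 0.203 and 0.182 RPKM, whereas pooled CJ7_WT stood at 1.83, close to EloA_WT. The groups did not overlap, and the outside control sided with wild type.

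Of the 17 tested serine and one-carbon enzymes 3 fell. Phgdh, the first enzyme of serine synthesis, stood at 2.68 and 2.43 RPKM in EloA_WT but at 0.468 and 0.348 in EloA_K754M, with 0.801 and 0.586 in EloA_K754R and 1.44 in pooled CJ7_WT (log2 change −2.39, adjusted p = 0.0281). Psat1, the next enzyme, stood at 3.67 and 3.69 against 1.28 and 1.13 RPKM, with 1.78 in pooled CJ7_WT (−1.54, adjusted p = 0.0281). Mthfd2, a mitochondrial folate enzyme, stood at 4.58 and 5.28 against 1.43 and 1.40 RPKM, with 2.78 in pooled CJ7_WT (−1.73, adjusted p = 0.0221). For all 3 both EloA_K754M libraries lay below both EloA_WT libraries, and the pooled CJ7_WT value lay between the groups. Psph, the step of serine synthesis after Psat1, did not pass (−0.62, adjusted p = 0.165). Shmt2, which passes the serine carbon to folate, missed the threshold at 8.58 and 8.57 against 3.77 and 3.90 RPKM (−1.14, adjusted p = 0.0882), and pooled CJ7_WT was lower still at 2.26.

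The proline pathway and the transaminases followed. Aldh18a1, which opens proline synthesis, stood at 2.29 and 2.18 RPKM in EloA_WT and 0.587 and 0.468 in EloA_K754M, with 1.43 in pooled CJ7_WT (log2 change −1.90, adjusted p = 0.0402). Pycr1, which closes it, stood at 2.92 and 2.42 against 0.822 and 0.721 RPKM, with 1.12 in pooled CJ7_WT (−1.67, adjusted p = 0.0381). Gpt2, a mitochondrial alanine transaminase, stood at 5.54 and 5.85 against 1.38 and 1.02 RPKM, with 3.71 in pooled CJ7_WT (−2.17, adjusted p = 0.0402). In each the 2 libraries of a group stood close together and the groups were well apart.

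Pck2, the mitochondrial form of the enzyme that makes phosphoenolpyruvate, stood at 3.23 and 3.04 RPKM in EloA_WT and 0.576 and 0.625 in EloA_K754M, with 1.57 in pooled CJ7_WT (log2 change −2.21, adjusted p = 0.0264). Aspa, which splits N-acetylaspartate, stood at 6.12 and 5.66 against 0.838 and 1.05 RPKM, with 1.62 in pooled CJ7_WT (−2.53, adjusted p = 0.0402). Asns, the asparagine synthetase gene and a classical ATF4 target, behaved otherwise. It stood at 35.8 and 40.1 RPKM in EloA_WT and 30.0 and 24.4 in EloA_K754M, and pooled CJ7_WT was lower at 10.8 (−0.49, adjusted p = 0.330).

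Among the transporters Slc1a4, which carries alanine, serine and cysteine, fell most. It stood at 2.93 and 2.89 RPKM in EloA_WT but at 0.465 and 0.372 in EloA_K754M, with 0.355 and 0.301 in EloA_K754R and 0.894 in pooled CJ7_WT (log2 change −2.54, SE 0.159, adjusted p = 0.0176). The glutamine carrier Slc1a5 did not pass, at 3.84 and 3.91 against 1.52 and 1.49 RPKM (−1.31, adjusted p = 0.0661), yet its pooled CJ7_WT value of 3.77 matched EloA_WT. Sars, the seryl-tRNA synthetase gene, stood at 3.71 and 3.59 against 1.78 and 1.67 RPKM, with 1.98 in pooled CJ7_WT, which was near the mutant (−1.04, adjusted p = 0.0490).

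Counted over whole lists, the lower level reached well past the genes that fell. Among the 16 tested ATF4 stress effectors 1 fell, 13 had an unadjusted p under 0.05 and all 16 had a lower mean, with a median of −1.02. The serine and one-carbon list had 3 falls among 17 genes (median −0.67), the other amino acid enzymes 5 among 18 (−0.43), the transporters 1 among 18 (−0.54) and the synthetases 1 among 20 (−0.61). Both EloA_K754M libraries lay below both EloA_WT libraries for 15, 13, 10, 11 and 18 genes of these 5 lists in that order. Over all tested genes, the shares were 0.204% for falls, 10.7% for a lower mean at an unadjusted p under 0.05 and 27.2% for both libraries below. The lists were chosen with earlier results of these data known, so the counts describe them and are no independent evidence. Further ATF4 effectors with large differences that missed the threshold were Trib3 (2.66 and 3.47 against 0.212 and 0.516 RPKM, log2 change −2.84), Nupr1 (2.89 and 2.67 against 0.259 and 0.404, −2.76) and Stc2 (5.68 and 3.33 against 0.232 and 0.227, −3.76), with adjusted p between 0.0648 and 0.104.

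Among transport genes below the threshold, Slc7a11 and Slc6a9 had pooled CJ7_WT well between the groups, whereas for Slc1a5, given above, it was near EloA_WT. Of the 18 tested transporters, 3 had a higher mean in EloA_K754M. Slc7a11, the cystine carrier, stood at 0.699 and 0.918 RPKM in EloA_WT against 0.0242 and 0.123 in EloA_K754M, with 0.230 in pooled CJ7_WT (log2 change −2.44, adjusted p = 0.0868). Slc6a9, a glycine carrier, stood at 0.627 and 0.552 against 0.0820 and 0.0949 RPKM, with 0.253 in pooled CJ7_WT (−1.87, adjusted p = 0.0632). For both the groups were apart and pooled CJ7_WT lay between. Among the synthetases Nars, for asparagine, stood at 11.2 and 13.6 against 5.38 and 5.45 RPKM, with 4.69 in pooled CJ7_WT, and Gars, for glycine, at 7.07 and 8.39 against 4.16 and 3.44, with 4.46. Here pooled CJ7_WT lay near or below EloA_K754M. On recovered reads, voom called 6, 6, 5, 7 and 6 lower genes in the 5 lists, in the order ATF4 effectors, serine and one-carbon, other enzymes, transporters and synthetases, and none higher, where 1.27% of all tested genes were lower.

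The lower level was shared in part by the wild-type CJ7 column. Medians of the ATF4 effectors were −0.84 and −1.01 for EloA_K754M, −1.28 and −1.37 in EloA_K754R and −0.92 in pooled CJ7_WT, each against the same EloA_WT mean. For the synthetases the values were −0.52 and −0.66, −0.79 and −0.74, and −0.61, and for the transporters −0.61 and −0.52, −0.77 and −0.92, and −0.42. These columns all use EloA_WT as their reference, and the part that EloA_WT plays in the shared level was not tested. Measured directly against pooled CJ7_WT, the EloA_K754M median was −0.38 for the ATF4 effectors, −0.33 for the transporters and −0.07 for the synthetases, where that of all tested genes was 0.15.

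Stress lists next to ATF4 differed among themselves. All 19 tested NRF2 targets, the genes of the oxidative stress response, had a lower mean in EloA_K754M (median −0.43). None passed the threshold in limma or voom, and 7 had an unadjusted p under 0.05. Over all tested genes 57.3% had a lower mean and 10.7% were lower at that p. Gstm1, a glutathione transferase, stood at 0.562 and 0.453 against 0.141 and 0.107 RPKM and was 0.413 and 0.425 in EloA_K754R, but 0.168 in pooled CJ7_WT (log2 change −1.44, adjusted p = 0.0775). The 21 ER chaperones and unfolded protein response genes had a median of 0.03 in EloA_K754M (−0.07 and 0.10 in its libraries). Pooled CJ7_WT lay at −0.71 and EloA_K754R at −0.51 and −0.23. At an unadjusted p under 0.05, 5 were lower and 1 higher (10.7% and 4.65% of all tested genes). Voom called 2 genes of the list lower (1.27% of all tested genes). Within that list Herpud1, an ER degradation factor that ATF4 also induces, stood at 4.94 and 5.50 against 1.49 and 2.04 RPKM (log2 change −1.53, adjusted p = 0.0648).

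The remaining named genes that fell serve varied functions. Sncg, the gene of gamma-synuclein, stood at 5.71 and 7.05 RPKM in EloA_WT and 0.833 and 0.903 in EloA_K754M (log2 change −2.74, SE 0.140, adjusted p = 0.0115). In EloA_K754R it stood at 5.52 and 5.76 RPKM and in pooled CJ7_WT at 4.44. The EloA_K754M libraries were the 2 low columns, and the difference from EloA_K754R was −2.57 (adjusted p = 0.00829).

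Irak3, an inhibitor of Toll-like receptor signalling, stood at 1.44 and 1.79 RPKM in EloA_WT but at 0.339 and 0.436 in EloA_K754M, with 0.902 and 1.08 in EloA_K754R and 1.22 in pooled CJ7_WT (log2 change −1.82, adjusted p = 0.0482). Its EloA_K754M libraries again lay below every other column, though against EloA_K754R the adjusted p was 0.0773. Jdp2, a bZIP repressor of AP-1 sites, stood at 3.16 and 2.78 against 0.794 and 0.683 RPKM, was as low in EloA_K754R at 0.829 and 0.706, and lay between at 1.88 in pooled CJ7_WT (−1.87, adjusted p = 0.0264). P2rx3, an ATP-gated ion channel, stood at 1.16 and 1.13 against 0.167 and 0.189 RPKM, with 0.460 in pooled CJ7_WT (−2.16, adjusted p = 0.0264). For both the outside control lay between the groups.

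Calcoco2, an autophagy receptor on chromosome 11, stood at 12.9 RPKM in both EloA_WT libraries, 6.21 and 6.06 in EloA_K754M and 5.04 and 5.28 in EloA_K754R (log2 change −1.06, adjusted p = 0.0482). Pooled CJ7_WT, at 12.6 RPKM, was level with EloA_WT, so both edited genotypes stood apart from both wild types. Cyb5r2, a cytochrome b5 reductase, did the opposite, at 1.04 and 0.892 against 0.0996 and 0.0972 RPKM with only 0.171 in pooled CJ7_WT (−2.42, adjusted p = 0.0264).

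In a further group wild-type CJ7 was at the mutant level. The surface antigen gene Ly6a stood at 3.23 and 4.08 RPKM in EloA_WT and 0.735 and 0.717 in EloA_K754M, and at 0.720 in pooled CJ7_WT (log2 change −2.18, adjusted p = 0.0221). Pramel6, an early embryonic gene of the PRAME family, stood at 9.74 and 8.10 against 2.10 and 1.99 RPKM, with 1.57 in pooled CJ7_WT (−2.07, adjusted p = 0.0176). Fam25c stood at 4.53 and 5.60 against 1.60 and 1.28 RPKM, with 1.46 in pooled CJ7_WT (−1.75, adjusted p = 0.0402). In these 3 only EloA_WT, and for Fam25c also EloA_K754R at 3.63 and 3.35 RPKM, was high.

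**Figure D2:**
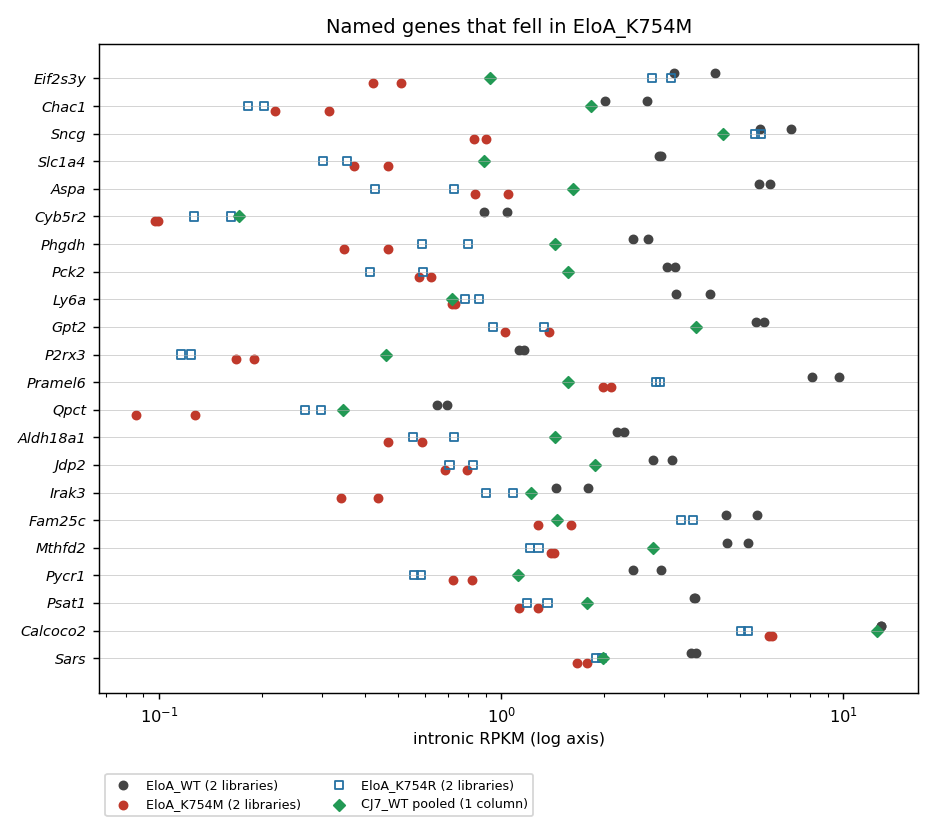
Intronic RPKM (log axis) of the 22 genes with a name that fell in EloA_K754M, ordered by the size of the fall, with each library a point and pooled CJ7_WT a diamond. The EloA_K754M points lie left of both EloA_WT points in every gene, while the diamond lies by EloA_WT for Calcoco2 and Chac1 and by EloA_K754M for Ly6a, Pramel6 and Fam25c.

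Of the 31 genes that fell, 9 are gene models without a name. Those with many reads include Gm14164 (0.980 and 1.03 against 0.142 and 0.203 RPKM), Gm17114 (0.675 and 0.612 against 0.0567 and 0.0639), Gm13261 (2.11 and 1.92 against 0.853 and 0.795), 2700007P21Rik (6.38 and 6.13 against 2.66 and 2.69) and 1700037F24Rik (2.00 and 3.80 against 0.347 and 0.301). Pooled CJ7_WT stood at 0.541 RPKM for Gm13261 and 2.00 for 2700007P21Rik, below EloA_K754M. The other 4, Gm10858, Gm20501, Gm11705 and Gm17097, were listed at 0 in both EloA_K754M libraries on fewer than 10 reads in EloA_WT, so their fitted changes rest on very few reads. At least 100 reads in EloA_WT stood behind 27 of the 31.

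The pooled CJ7_WT column was set beside all 31 as the outside control. It lay below both EloA_WT libraries for 29 of them, as for 53.1% of all tested genes, and both EloA_K754M libraries lay below it for 24, where the share over all tested genes was 31.1%. Both genes that rose lay above it, as did 50.1% of all tested genes. For 15 of the 31 both lay below it and the mean was at least 2-fold lower on the offset scale, against 2.94% of all tested genes. The 31 were picked on these same EloA_K754M and EloA_WT values, so counts above the shares of all genes are partly built in. The median of EloA_K754M minus pooled CJ7_WT over the 31 was −0.94, less than their median of −2.17 against EloA_WT. For 10 genes both EloA_K754M libraries were below every other column, namely Irak3, Sncg, Qpct, Cyb5r2, Phgdh, Sars, Eif2s3y, Gm17097, Gm17114 and Gm20501.

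The arginine form shared most of the falls. Both EloA_K754R libraries lay below both EloA_WT libraries for 28 of the 31, where this holds for 38.8% of all tested genes; both comparisons use the same 2 wild-type libraries. EloA_K754M and EloA_K754R differed at an adjusted p under 0.05 for 44 of all tested genes (0.29%) and for 6 of the 33 that passed against EloA_WT. These were Sncg, the Y-linked Eif2s3y, the gene models Gm20501 and Gm17097, and both genes that rose.

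The 2 genes that rose are thinly covered. Gm7325, known as the gene of the muscle cell fusion peptide myomixer, stood at 2.40 and 2.85 RPKM in EloA_WT and 6.65 and 7.17 in EloA_K754M, with 1.91 and 1.66 in EloA_K754R and 0.430 in pooled CJ7_WT (log2 change 1.37, adjusted p = 0.0482). Both EloA_K754M libraries were above every other column, but on 20 reads against 9 in EloA_WT. Gm9901 was listed at 0 in both EloA_WT libraries and at 15.1 and 7.36 RPKM in EloA_K754M on 3 reads in all.

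Below the threshold, the 15 clearest increases had adjusted p between 0.0510 and 0.0914 and are given as values. The folate receptor gene Folr2 stood at 0.134 and 0.158 RPKM in EloA_WT, 0.668 and 0.760 in EloA_K754M and 0.430 in pooled CJ7_WT. Rab19, a small GTPase gene, stood at 0.333 and 0.310 against 0.911 and 1.01 RPKM, with 0.242 and 0.253 in EloA_K754R and 0.759 in pooled CJ7_WT. Neither pair of groups overlapped, and for both the outside control lay between.

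Well-covered genes in this set were Lpp, a focal adhesion gene (1.42 and 1.33 against 2.56 and 2.69 RPKM), Pid1 (1.40 and 1.46 against 2.75 and 2.77), Basp1 (2.58 and 2.58 against 5.39 and 4.60) and Wdr35, a gene of ciliary transport (2.02 and 1.89 against 3.75 and 4.58). The imprinted Rtl1 stood at 2.32 and 2.54 against 4.64 and 5.24 RPKM, and the kinase gene Dgki at 0.162 and 0.189 against 0.552 and 0.714. Pooled CJ7_WT lay above both EloA_WT libraries in 12 of the 15 and below both EloA_K754M libraries in 14, so its level was mostly in between. It was not above EloA_WT for the adaptor gene Dok1 (1.75 and 1.31 against 3.97 and 5.64 RPKM, pooled CJ7_WT 0.333), the hormone gene Insl3 (1.26 and 0.995 against 2.75 and 2.60, pooled CJ7_WT 0.789) and Trim44 (2.12 and 2.33 against 4.22 and 3.81, pooled CJ7_WT 1.93). The 4 others were Esam, Thbs3, Lrrc14b and the T cell receptor segment Trav17, the last on 4 reads.

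Setting EloA_K754M against all other columns at once gives genes that neither EloA_WT, EloA_K754R, CJ7_WT nor Eed_null (a pooled column, titled as lacking the Polycomb subunit Eed) shares. Both EloA_K754M libraries lay below all 6 other columns for 675 tested genes (4.45%) and above all 6 for 882 (5.82%). With a gap of at least 0.5 on the log2 scale, a mean of at least 0.3 RPKM and 20 reads, 38 lower and 33 higher genes were left; these minima were chosen after the values were seen, and no test was made. Of the 38 lower genes, 15 lay at the distal end of chromosome 17, 2 on chromosome Y, 2 on chromosome 11 and 19 elsewhere.

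Among the lower genes elsewhere were Sncg and Irak3 and also Lefty2, a secreted inhibitor of the TGF-beta family. Lefty2 stood at 1.85 and 1.59 RPKM in EloA_WT but at 0.501 and 0.391 in EloA_K754M, with 6.79 and 2.95 in EloA_K754R and 1.73 in pooled CJ7_WT (log2 change −1.74, adjusted p = 0.130). The X-linked Usp26 stood at 0.641 and 0.415 RPKM in EloA_WT and 0.138 and 0.160 in EloA_K754M, but at 2.91 and 2.30 in EloA_K754R and 2.41 in pooled CJ7_WT. EloA_K754M differed from EloA_K754R by −3.43 for it (adjusted p = 0.011). The actin-binding Lima1 stood at 1.31 and 1.24 against 0.665 and 0.653 RPKM. Higher genes included Dok1 and Trim44 and also Prex2, a Rac activator (0.919 and 1.43 against 2.43 and 2.58 RPKM, 0.759 and 0.880 in EloA_K754R and 0.909 in pooled CJ7_WT), Cnn2 (1.00 and 0.843 against 1.93 and 2.39) and the ETS factor Etv4 (0.897 and 1.61 against 2.60 and 3.17).

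The lower genes of chromosome 17 formed a block at its end. In GRCm38 gene order, from Birc6 to the last tested gene of the chromosome, 64 of 69 tested genes had a lower mean in EloA_K754M, 55 had both libraries below both of EloA_WT (79.7%) and 48 had an unadjusted p under 0.05 (69.6%). The median was −0.84, with −0.79 and −0.85 in the 2 libraries, where EloA_K754R stood at −0.15 and −0.09 and pooled CJ7_WT at −0.13. Against pooled CJ7_WT itself the median was −0.55, and both libraries lay below it for 55 of the 69. The 616 tested genes of the rest of chromosome 17 had a median of −0.05. The block was found in these values, so it is described without a test, and only Qpct passed the threshold within it.

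Many neighbouring genes of varied function shared the lower level. It was not uniform, as Ltbp1 and Crim1 within the block stood at 0.09 and 0.01 on the log2 scale. Sos1, a Ras exchange factor, stood at 3.67 and 2.98 RPKM in EloA_WT but at 1.57 and 1.27 in EloA_K754M, with 4.18 and 3.64 in EloA_K754R and 3.03 in pooled CJ7_WT. Msh6, a DNA repair gene, stood at 31.1 and 32.1 against 13.6 and 13.7 RPKM, with 18.1 in pooled CJ7_WT. Fbxo11, a ubiquitin ligase subunit gene, stood at 4.34 and 4.41 against 1.91 and 1.71 RPKM, with 5.02 in pooled CJ7_WT. For Sos1, Msh6 and Fbxo11 the EloA_K754M libraries were the lowest columns.

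The calmodulin gene Calm2 stood at 10.4 and 10.0 RPKM in EloA_WT against 4.96 and 5.06 in EloA_K754M, with 9.69 in pooled CJ7_WT. Qpct, a glutaminyl cyclase, stood at 0.649 and 0.694 against 0.0857 and 0.127 RPKM, with 0.268 and 0.297 in EloA_K754R and 0.345 in pooled CJ7_WT (log2 change −1.91, adjusted p = 0.0482). Eif2ak2, the kinase PKR, which feeds the same stress response as ATF4, stood at 1.24 and 1.05 against 0.673 and 0.641 RPKM, with 2.09 in pooled CJ7_WT (−0.72, adjusted p = 0.125). Both EloA_K754M libraries were below all 6 other columns for 45 of the 69 genes and for 22 of the 616 on the rest of the chromosome.

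The edge of the block was narrow. Memo1 and Dpy30 stood at 0.14 and 0.01 and Spast at −0.14 on the log2 scale. The next genes, Slc30a6, Yipf4, Birc6 and Ttc27, stood at −0.59, −1.04, −0.54 and −0.81. Only genes averaging 0.5 RPKM or more are listed here. Birc6 was set as the start by a running median of 11 genes, so Slc30a6 and Yipf4 were counted with the rest of the chromosome. A smaller stretch on chromosome 8, 23 genes from Insr to Shcbp1, had medians of −0.63 and −0.66 in EloA_K754M, but also of −0.31 and −0.40 in EloA_K754R and −0.41 in pooled CJ7_WT.

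**Figure D3:**
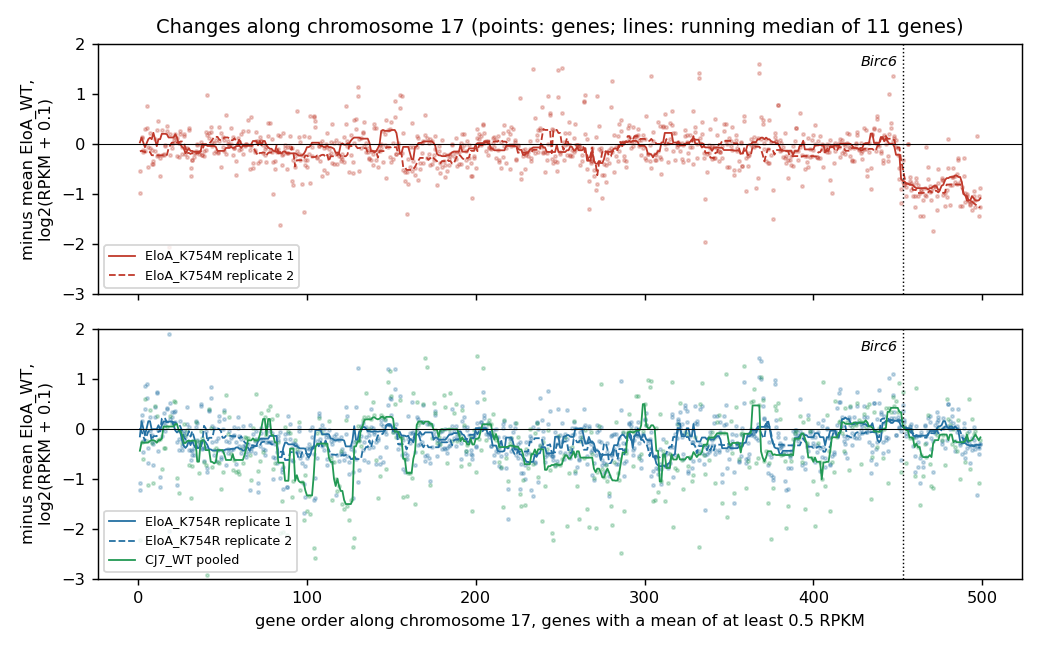
Change from the mean of EloA_WT in log2(RPKM + 0.1) for genes averaging 0.5 RPKM or more in their order along chromosome 17, with EloA_K754M above and EloA_K754R and pooled CJ7_WT below; lines are running medians of 11 genes. From Birc6 (dotted line) to the end both EloA_K754M lines lie below −0.4, which the other columns' lines do not do throughout.

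Chromosomes 11 and Y also stood apart. Chromosome 11 holds 1314 tested genes, of which 829 had both EloA_K754M libraries below both of EloA_WT (63.1%) and 603 an unadjusted p under 0.05 (45.9%). Medians over the chromosome were −0.45 in each EloA_K754M library, −0.55 and −0.57 in EloA_K754R and −0.44 in pooled CJ7_WT, and 0.01 for EloA_K754M against pooled CJ7_WT. The lower level against EloA_WT ran over the whole chromosome, with medians of its successive stretches between −0.52 and −0.41 in replicate 1 and between −0.58 and −0.36 in replicate 2. Of the genes that fell, Slc1a4, Aspa, Pycr1 and Calcoco2 lie there, with falls of −1.06 to −2.54. They were picked for passing the threshold, and the smallest of all 31 falls was −1.04, so exceeding that median is built in. With each chromosome centred, 14 of the 31 falls were still called. Medians of the other autosomes lay between −0.08 and 0.01.

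All 6 tested genes of chromosome Y had both EloA_K754M libraries below both EloA_WT libraries. Eif2s3y, a subunit gene of translation factor eIF2, stood at 3.19 and 4.23 RPKM in EloA_WT but at 0.509 and 0.421 in EloA_K754M, with 2.75 and 3.13 in EloA_K754R and 0.930 in pooled CJ7_WT (log2 change −2.74, adjusted p = 0.0182). Ddx3y, an RNA helicase gene, stood at 2.33 and 3.98 against 0.597 and 0.722 RPKM, with 1.06 in pooled CJ7_WT, and the demethylase gene Uty at 1.14 and 2.01 against 0.309 and 0.406, with 0.977. Medians over chromosome Y were −2.08 and −1.81 for EloA_K754M, 0.36 and 0.52 in EloA_K754R and −0.84 in pooled CJ7_WT. The EloA_K754R values depended on which genes were counted: the list of Y-linked genes, 5 of these 6, had medians of −0.11 and 0.06 there, and of −1.98 and −1.68 for EloA_K754M.

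**Figure D4:**
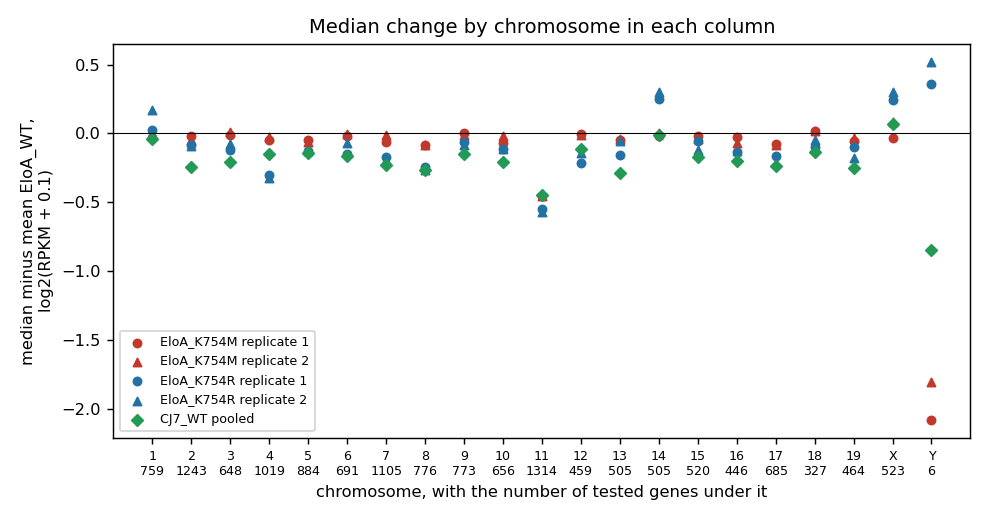
Median change from the mean of EloA_WT over the tested genes of each chromosome, in log2(RPKM + 0.1), for each EloA_K754M and EloA_K754R library and pooled CJ7_WT. Chromosome 11 lies between −0.44 and −0.57 in all 5 columns, and chromosome Y is lowest in the EloA_K754M libraries, at −2.08 and −1.81.

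Gains by list were smaller than the losses. The 27 tested embryonic fibroblast markers had a higher mean in 25, with none past the threshold, 8 higher at an unadjusted p under 0.05, 4 called higher by voom and a median of 0.41. Their medians were 0.60 and 0.18 in the EloA_K754M libraries, 0.62 and 0.27 in EloA_K754R and 0.38 in pooled CJ7_WT. Over all tested genes 6480 of 15161 had a higher mean, 4.65% were higher at an unadjusted p under 0.05, and voom called 0.844% higher. Lox, which crosslinks collagen, stood at 1.21 and 1.35 against 2.27 and 2.10 RPKM. The part of feeder cells in these and other increases was not tested, and fewer cells of a type cannot be told apart from less RNA per cell in bulk libraries.

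MAPK feedback and immediate early genes, which report on ERK signalling, had a higher mean in 15 of 18 (median 0.32), against −0.20 in pooled CJ7_WT. The EloA_K754R libraries differed for this list, at −0.02 and 0.25. Of all 15161 tested genes 6480 had a higher mean in EloA_K754M. Spry4 stood at 0.776 and 2.60 RPKM in EloA_WT and 3.68 and 4.91 in EloA_K754M, but also at 3.02 and 6.48 in EloA_K754R, so its replicates differed widely. Hox cluster genes were higher in 18 of 22 (median 0.37, at levels near the floor), imprinted genes in 16 of 29 (0.16) and p53 targets in 16 of 22 (0.16). The Hox medians were 0.40 and 0.10 in EloA_K754M replicates 1 and 2 and 0.40 and 0.34 in EloA_K754R. Among p53 targets Perp stood at 1.17 and 0.899 against 1.77 and 1.72 RPKM, and Mdm2 at 17.6 and 17.5 against 23.3 and 26.0. None of these lists had a gene past the threshold in limma. At an unadjusted p under 0.05 the MAPK list had 3 higher genes, the Hox list 2, the imprinted list 5 (with 2 lower) and the p53 list 3 (with 1 lower). Voom called 3 higher and 1 lower imprinted gene and no other gene of these lists. Over all tested genes 4.65% were higher and 10.7% lower at that p, and 0.844% and 1.27% by voom. Among imprinted genes the growth inhibitor Grb10 stood at 4.60 and 3.52 against 1.60 and 0.896 RPKM, with 2.21 in pooled CJ7_WT, and Sgce at 0.289 and 0.232 against 0.575 and 0.592, with 0.543. The first was lower and the other higher in EloA_K754M, and in both pooled CJ7_WT lay between EloA_WT and EloA_K754M.

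No gene of the naive pluripotency and PRC2 lists passed the threshold in limma. At an unadjusted p under 0.05 there were 2 higher naive genes and 2 lower PRC2 genes, and voom called 1 lower PRC2 gene. Over all tested genes 4.65% were higher and 10.7% lower at that p, and voom called 1.27% lower. The 21 naive pluripotency factors had a median of 0.01, with Pou5f1 at 19.2 and 24.7 against 20.5 and 36.5 RPKM, Nanog at 21.5 and 24 against 18 and 20.1 and Klf4 at 5.69 and 4.66 against 7.18 and 4.88. The 10 PRC2 genes had a median of 0.05 (−0.04 without EloA_WT replicate 1). Eed stood at 10.6 and 14.9 against 14.3 and 17.1 RPKM, Ezh2 at 5.40 and 5.15 against 5.48 and 4.66, and Suz12, on chromosome 11, at 12.4 and 15.3 against 8.31 and 9.19 (log2 change −0.65, adjusted p = 0.140). Sox2 has no value in the table.

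Housekeeping lists had negative medians and no gene past the threshold in limma. Cytosolic ribosomal protein genes had a median of −0.28 over 96 genes, mitochondrial ones −0.18 over 76 and DNA replication and repair genes −0.18 over 36, with 14, 17 and 7 lower genes at an unadjusted p under 0.05 and 1, 1 and 2 called lower by voom. Over all tested genes these shares were 10.7% and 1.27%, and the voom counts of the first 2 lists are near the latter. The 2 libraries differed for the first list, at −0.12 and −0.43, and pooled CJ7_WT lay far lower at −1.40. Glycolysis and hypoxia genes had a median of −0.35 over 25 genes, but 0.17 without EloA_WT replicate 1. The medians of the RNA polymerase II, PRC1, neural, TGF-beta family, cholesterol and oxidative phosphorylation lists lay between −0.12 and −0.02 and turned positive with equal medians.

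**Figure D5:**
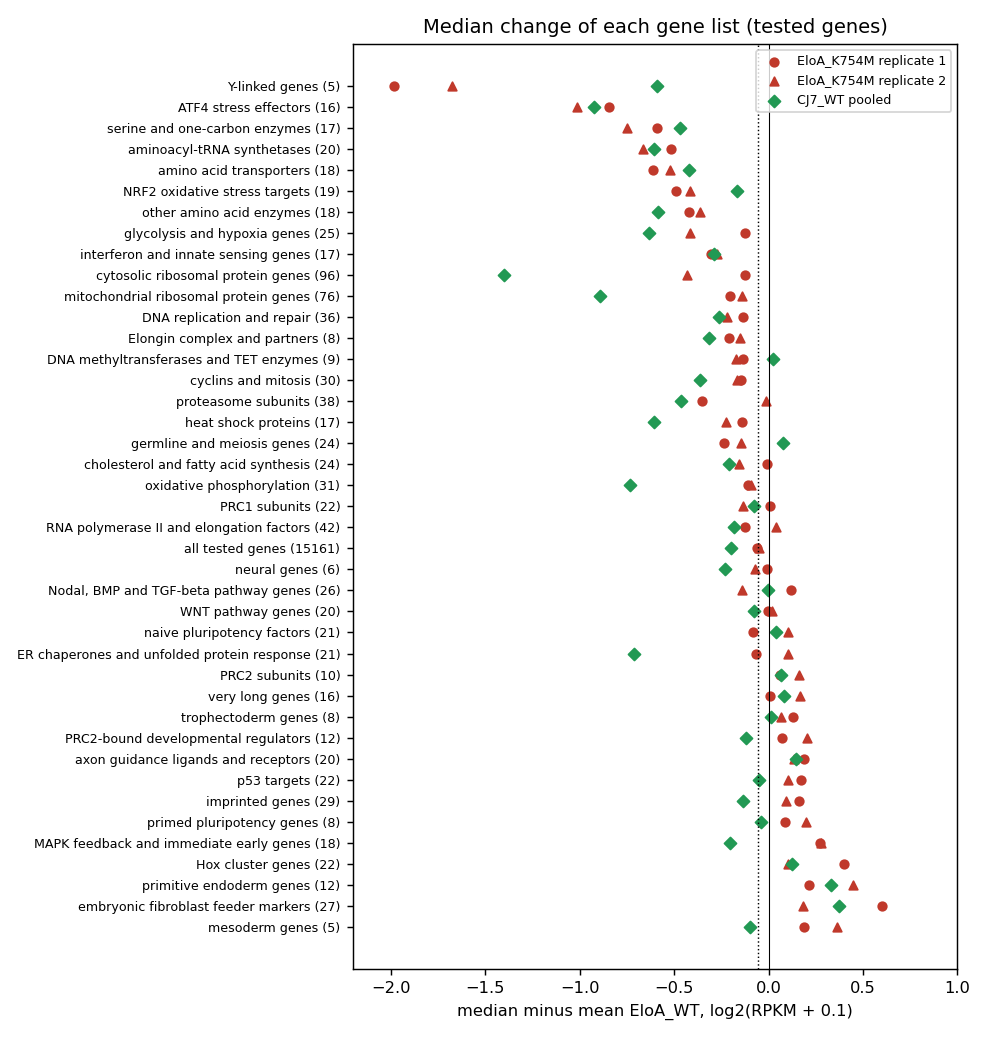
Median change from the mean of EloA_WT of each gene list with at least 5 tested genes (number in parentheses), in log2(RPKM + 0.1), for both EloA_K754M libraries and pooled CJ7_WT; the dotted line is the median of all tested genes. ATF4 effectors, serine and one-carbon enzymes, synthetases and transporters lie lowest after the Y-linked genes in both libraries, and ribosomal protein genes lie far lower in pooled CJ7_WT (−1.40) than in EloA_K754M.

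Intron length had a small relation to the change. Tested genes with annotated introns, leaving out chromosome 11, were split by intron length into sets of 1285 or 1286. The median lay between −0.10 and −0.09 for genes with 1.428 to 16.801 kb of intron. It stood at 0.12 for the set with the longest introns and at 0.02 for that with the shortest. In pooled CJ7_WT against EloA_WT the same medians ran from −0.69 for the shortest to 0.22 for the longest. Elongin is an elongation factor, so the 16 very long genes were listed apart. Their median was 0.08, with 11 of 16 higher and none past the threshold (2 higher and 1 lower at an unadjusted p under 0.05, 1 higher by voom). Lpp, given above, had the clearest increase among them. Over all tested genes 6480 of 15161 had a higher mean, 4.65% were higher and 10.7% lower at that p, and 0.844% were higher by voom.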

How the data were processed

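Bru-seq values were taken from the authors' deposited table of intronic RPKM, with 1 column for each of 6 libraries and pooled columns for CJ7_WT and Eed_null. BWA and mm9 are named in the submitters' processing notes, whereas no source used here gives versions, counter, annotation or strand handling, so overlapping genes may share reads. Whole reads could be recovered from the RPKM steps for 20817 of 20817 genes with 6 or more values above 0 (within 0.01 of a read, 0.06 for high values; 100% whole). For 7149 genes the step was smaller by a factor of 1.99, whose cause was not tested. Their reads were halved to a common unit.

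Changes are differences of log2(RPKM + 0.1), from limma 3.58.1 under R 4.3.3, by a linear model with eBayes and a variance trend, over 6 libraries in 3 groups, two-sided, with Benjamini-Hochberg adjustment over 15161 genes, a call at adjusted p under 0.05, degrees of freedom of 3 (residual) and 2.76 (prior) and a median residual SD of 0.195. "Fell" and "rose" mean an adjusted p under that threshold. With 2 libraries a group, precision is limited, and the read totals cover counting error only. Scripts were tested on simulated data. Chromosome and gene order come from GENCODE M21 (GRCm38), matched by Ensembl ID for 22887 of 24901 genes (91.9%), while the files use mm9.

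Named genes were all past the threshold, the 15 increases with the smallest p, some of up to 4 further members of each of 41 lists with the largest change, and the Elongin, PRC2 and pluripotency genes given; genes of chromosome 17, of the list with gaps and of the chromosome 8 stretch were chosen after their values were seen. Members, lists and rules were chosen with earlier results of these data known. Alternatives were other offsets, filters, scalings, variance models, replicate blocks, voom on recovered reads and leaving out each library.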

Additional observations from a re-analysis of the deposited data

Results flagged for a closer look

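EloA_K754M and EloA_K754R differed from each other, in the direct limma contrast at an adjusted p under 0.05 over all tested genes, for 8 of the genes chosen by rule, and for Usp26 (given above), which was chosen after its values were seen. EloA_K754M was lower for Sncg (log2 difference −2.57), Eif2s3y (−2.43), Zfy1 (−2.24), Gm20501 (−3.74) and Gm17097 (−2.95), and higher for Gm7325 (1.90), Rab19 (1.61) and Gm9901 (6.73). Zfy1, a Y-linked zinc finger gene, stood at 0.0166 and 0.0258 RPKM in EloA_K754M, 0.175 and 0.237 in EloA_WT, with a mean of 0.472 in EloA_K754R. The last gene model of each direction, Gm17097 and Gm9901, rests on 2 and 3 reads.

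The median over the 6 tested genes of chromosome Y lay on opposite sides of 0 in the mutants, at −2.08 and −1.81 in the EloA_K754M libraries and 0.36 and 0.52 in those of EloA_K754R, each against the same EloA_WT mean. Over the 5 genes of the Y-linked list the EloA_K754R medians were −0.11 and 0.06, so the higher level there rests on the genes counted, whereas EloA_K754M stayed low at −1.98 and −1.68. The difference between the mutants was not tested for the chromosome as a whole.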

How the results depend on the processing

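The number of genes past the threshold, 33 as reported, was 16 without a filter on low values, 16 with equal medians, 17 with quantile normalization, 15 with each chromosome centred, 20 without chromosomes 11 and Y and distal chromosome 17 (chosen after seeing the data), 84 with at least 20 recovered reads and 320 with voom on recovered reads (128 higher, 192 lower), which called 27 of the 33. With only the 4 libraries of the comparison it was 3, and leaving out each library gave 2 (EloA_WT replicate 1) to 52 (EloA_K754M replicate 1, 43 of them higher), with 11 without EloA_WT replicate 2 or EloA_K754M replicate 2 and 3 without either EloA_K754R replicate. Of the 33, 0, 1, 6, 2, 0 and 0 were still called without EloA_WT 1 and 2, EloA_K754M 1 and 2 and EloA_K754R 1 and 2, and all 31 falls stayed negative. None of the 33 was among the 3 called with only the 4 libraries of the comparison, where the changes are the same by construction. Where the groups do not overlap, leaving out a library cannot turn the sign of a fall. With a replicate block the count was 227 (41 higher, 186 lower), all 33 included. The numbers are not said to mark a shared day, and deviations of same-numbered libraries correlated at 0.166 (EloA_WT and EloA_K754M), 0.197 and 0.152.

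Of the 6 genes that differed from EloA_K754R, 0 to 4 remained in number when a library was left out. The median against pooled CJ7_WT of the genes that fell, −0.94, was −0.40 with an offset of 1 and −1.06 with equal medians. Signs turned for genes that did not pass. With equal medians, quantile normalization and centred chromosomes Cul5 came to 0.10, 0.10 and 0.024 and Ezh2 to 0.067, 0.043 and 0.038; Cul5 came to 0.030 with voom and Spast to 0.0070 centred. Leaving out each library gave −0.15 to 0.10 for Cul5, −0.17 to 0.054 for Ezh2, −0.38 to 0.032 for Tceb3, −0.39 to 0.061 for Tceb2, −0.087 to 0.11 for Dpy30, −0.088 to 0.74 for Pou5f1 and −0.075 to 0.47 for Klf4. The cause was not tested.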
